A study of Homo sapiens with 4 samples.

Results

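Zinc transporters and metallothioneins are the proteins through which a cell moves and stores zinc, and their transcripts were followed here on 4 microarrays of human prostate cancer lines. Members were all probe sets (the array's set of oligonucleotides for 1 transcript) whose gene symbol was SLC30A or SLC39A followed by digits, or MT1 or MT2 followed by 1 letter. This gave 33 genes with 1 probe set each, of 17687 named genes and 21448 probe sets in all: 10 SLC30A exporters, 14 SLC39A importers and 9 metallothioneins. The arrays were Clariom S arrays of RNA from PC3 and C42B cells that carried a stable plasmid, either for pre-miR-410 or for a scrambled control (miR-CON), with 1 array for each line and construct. The 4 groups were PC3 miR-410, PC3 miR-CON, C42B miR-410 and C42B miR-CON, and all of them shared the pMIR vector with a CMV promoter and a GFP reporter, selection with puromycin and harvest in logarithmic growth. PC3 is a line from a bone metastasis that lacks androgen signalling, and C42B is a castration-resistant derivative of LNCaP cells. Each group was 1 array of stably transfected cells, so the construct had no replicate.

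Zinc enters the cytosol through the SLC39A (ZIP) family, from outside the cell or out of organelles, and leaves it through the SLC30A (ZnT) family. Metallothioneins are small cysteine-rich proteins that bind zinc, copper and cadmium. Zinc raises their transcription through the factor MTF-1, which binds metal response elements near the gene starts. The normal prostate holds more zinc than most soft tissues, a state tied to citrate secretion, and loss of zinc is a known feature of prostate cancer.

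The labels of these arrays were not free of conflict. For the pair titled PC3, the title named one construct while the genotype and description fields named the other. For the pair titled C42B, all fields named the same construct. The arrays are called here by their titles. The RMA value (log2 signal after the authors' normalization) of KLK3, the gene of prostate-specific antigen, was 11.17 and 11.04 on the PC3 miR-410 and PC3 miR-CON arrays, against 6.74 and 7.18 on the C42B miR-410 and C42B miR-CON arrays. ANXA1, a gene known to be high in PC3 cells, had RMA values of 3.27 and 3.11 on the PC3 arrays and of 11.19 and 11.10 on the C42B arrays, miR-410 before miR-CON each time. Of 12 measured LNCaP-lineage markers, 9 were called higher and 0 lower on the arrays titled PC3 (median log2 difference 2.09), and of 15 measured PC3 markers 14 were called lower and 0 higher (median -3.74). The markers thus ran against the line names in the titles, and so did the fold changes printed by the study. All 9 examined for PC3 matched only the pair titled C42B, and all 9 for C42B only the pair titled PC3. Every statement on a line below is a statement on arrays so titled, and not on cells of that name. Array medians lay between 6.34 and 6.39, and Pearson's r over all probe sets was 0.990 between the PC3 arrays and 0.980 between the C42B arrays, against 0.881 to 0.886 between arrays of different lines.

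Sequence is shown for metallothionein genes because the metal response element is the feature by which metallothionein genes are known to answer zinc. The core of the element was searched as TGCACNC and TGCGCNC, on both strands, in the 150 bases before each gene start in RefSeq's promoter windows (GRCh38.p14). Of 35116 such windows, 17.1% held at least 1 match, 3.43% at least 2, 0.689% at least 3 and 0.137% at least 4. Among the metallothioneins, MT2A (chr16:56608434-56608583, plus strand), MT1B (chr16:56651736-56651885, plus strand), MT1H (chr16:56669664-56669813, plus strand) and MT1X (chr16:56682320-56682469, plus strand) had a window. SLC30A1 (chr1:211579162-211579311, minus strand) is shown beside them as a transporter known to be an MTF-1 target. All are written on the gene's own strand and end at the base before the start, with every match in capitals in either orientation.
MT2A: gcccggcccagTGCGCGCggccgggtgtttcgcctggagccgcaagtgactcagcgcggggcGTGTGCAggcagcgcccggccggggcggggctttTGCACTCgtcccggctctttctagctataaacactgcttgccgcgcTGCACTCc
MT1B: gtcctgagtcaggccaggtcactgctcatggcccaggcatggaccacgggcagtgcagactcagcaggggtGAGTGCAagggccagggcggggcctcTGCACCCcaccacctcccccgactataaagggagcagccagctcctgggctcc
MT1H: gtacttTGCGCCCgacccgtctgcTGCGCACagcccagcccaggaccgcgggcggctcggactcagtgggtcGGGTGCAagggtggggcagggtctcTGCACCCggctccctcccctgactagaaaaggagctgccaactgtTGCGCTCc
MT1X: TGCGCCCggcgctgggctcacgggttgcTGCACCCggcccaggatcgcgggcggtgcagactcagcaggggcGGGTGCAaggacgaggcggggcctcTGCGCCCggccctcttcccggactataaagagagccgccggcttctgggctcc
SLC30A1: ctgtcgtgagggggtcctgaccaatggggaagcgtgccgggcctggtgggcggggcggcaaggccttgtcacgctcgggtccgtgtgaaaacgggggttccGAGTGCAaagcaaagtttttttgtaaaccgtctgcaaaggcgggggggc

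The MT2A window held 4 matches, MT1H 5, MT1X 4 and MT1B 2, and none overlapped another. A pair of matches lay at nearly the same place in all 4 metallothionein windows: a reverse match began 78 bases before the start in MT1H and MT1X, 79 in MT1B and 88 in MT2A, and a forward match began 53 bases before the start in MT1B, MT1H and MT1X and 54 in MT2A. SLC30A1 held 1 match, in reverse, that began 49 bases before the start. Over both transporter families, 5 of 11 exporter windows (9 genes, SLC30A1 included) and 3 of 19 importer windows (12 genes) held at least 1 match, and 2 exporter windows and 0 importer windows held at least 2. A match is a description of these letters and not a measured binding site. In RefSeq's gene order all 9 metallothionein members lie on chromosome 16 in a run of 15 genes that begins with MT2A and ends with MT1X.

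**Figure D1:**
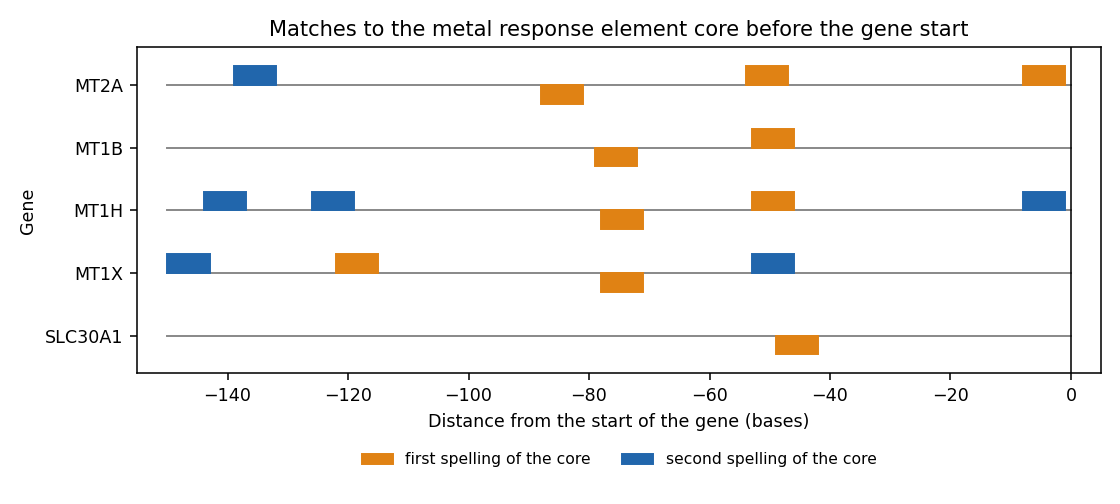
Matches to the metal response element core in the 150 bases before the start of 5 genes, with the distance from the gene start in bases on the x axis. Boxes above a line are matches on the gene's strand and boxes below it are reverse matches, in the first spelling searched (orange) or the second (blue). The 4 metallothionein genes hold 4, 2, 5 and 4 matches from top to bottom, and SLC30A1 holds 1.

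The plasmid itself encodes the hairpin of miR-410, whose mature strand (chr14:101065961-101065981, plus strand, GRCh38.p14, RefSeq) is shown with its seed, bases 2 to 8, in capitals. The seed is the stretch by which a microRNA pairs with its targets. The arrays do not measure the mature strand.
hsa-miR-410-3p: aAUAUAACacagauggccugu

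Between the lines, the 9 measured metallothioneins of the MT1 and MT2 groups were all lower on the arrays titled PC3, by 1.99-fold to 3.46-fold. MT1A, a gene of the same run on chromosome 16, had no probe set under that symbol. MT3 and MT4, metallothioneins outside the symbol rule, were not called. Their log2 differences were -0.34 and -0.58 (limma adjusted p = 0.184 and 0.113). The exporters SLC30A4 and SLC30A1 and the importers SLC39A8, SLC39A6 and SLC39A3 were higher on the arrays titled PC3, and the importer SLC39A10 was lower. The remaining 18 transporters did not pass the test. Calls were made with limma over all 21448 probe sets at an adjusted p of 0.05, with the arrays titled PC3 set against those titled C42B. The 2 constructs of a line served as its 2 samples, so the spread behind each p includes any difference between constructs, and nothing in the labels says that they were separate replicate cultures of a condition.

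In all, 15 of 33 members passed, 5 higher and 10 lower on the arrays titled PC3. Over the whole table, 13.5% of probe sets were called higher and 10.8% lower. The count of members called higher is thus near the share of all probe sets. The count called lower is above it, and 9 of the 10 were metallothioneins. The median log2 difference, arrays titled PC3 minus arrays titled C42B, was -1.58 over the metallothioneins, 0.21 over the exporters, 0.13 over the importers and 0.03 over all probe sets. Metallothionein transcripts are near-identical over much of their length and their probe sets may share signal, so the 9 values are not independent measurements. RNA came from whole cultures, in which fewer cells of a type and less RNA per cell cannot be told apart.

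**Figure D2:**
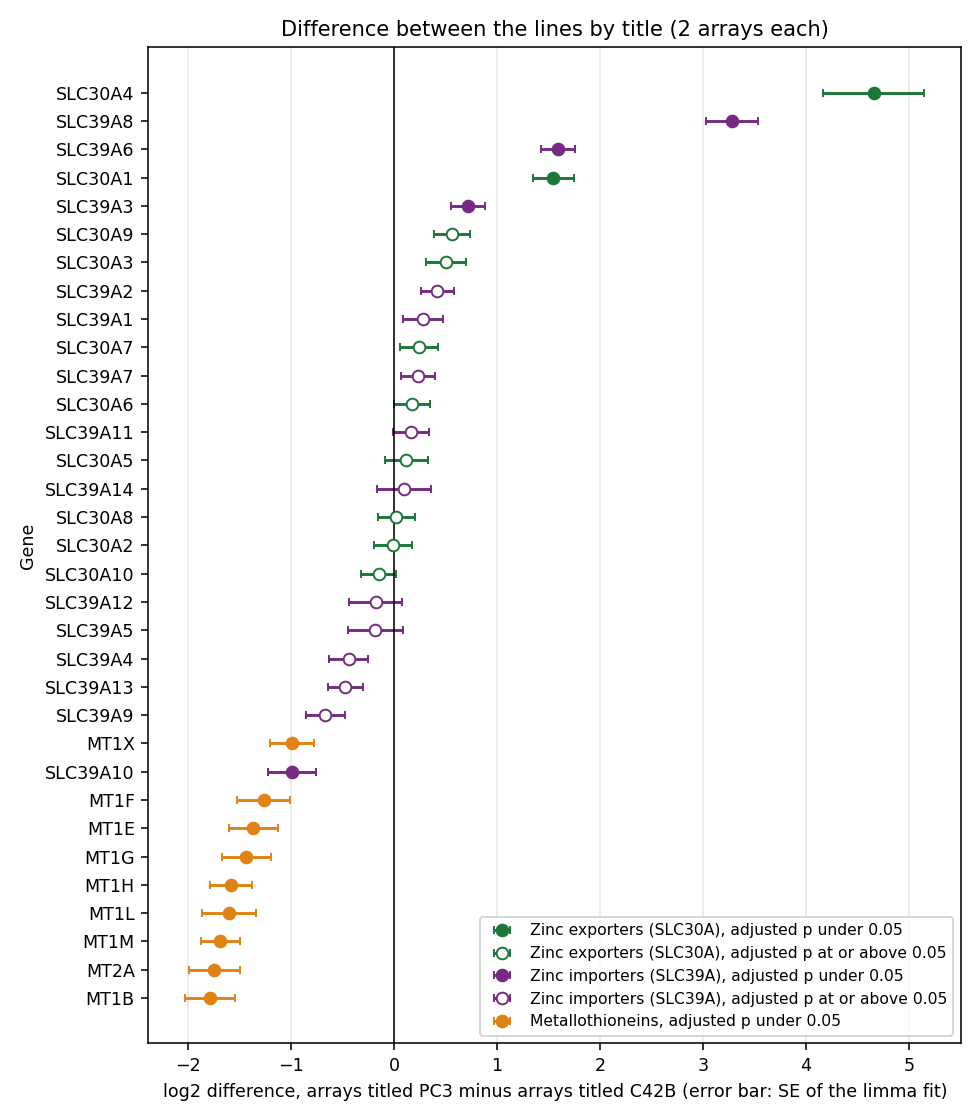
Log2 difference, arrays titled PC3 minus arrays titled C42B (x axis), for the 33 genes in order of the difference, with the SE of the limma fit as error bar and 2 arrays a line. Filled points had an adjusted p under 0.05: SLC30A4 stands farthest right at 4.66, and the 9 metallothioneins lie between -1.79 and -0.99.

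SLC30A4, which moves zinc into endosomes and secretory vesicles, had the widest difference of the 33. Its RMA values were 10.63 and 9.58 on the PC3 miR-410 and PC3 miR-CON arrays, and 6.02 and 4.87 on the C42B miR-410 and C42B miR-CON arrays. Both arrays titled PC3 lay far above both titled C42B, and within each line the array titled miR-410 was the higher. The log2 difference between the lines was 4.66 ± 0.49 (SE, n = 2 arrays a line), or 25.3-fold (limma adjusted p = 0.00236). Both of its values on the arrays titled C42B were below the median of all values in the table, 6.36.

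SLC30A1 encodes the exporter of the plasma membrane that carries zinc out of the cell. It had RMA values of 8.001 and 7.958 on the PC3 miR-410 and PC3 miR-CON arrays, against 6.22 and 6.64 on the C42B miR-410 and C42B miR-CON arrays. The lines did not overlap, as was so in either direction for 63.6% of all probe sets, and the 2 arrays titled PC3 were nearly equal. The log2 difference was 1.55 ± 0.20 (SE), or 2.92-fold (adjusted p = 0.00472). SLC30A1 and the metallothioneins are both known MTF-1 targets, and they differed between the lines in opposite directions. Whether MTF-1 had a part in either difference was not tested.

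The other 8 exporters did not pass the test, with log2 differences from -0.15 to 0.56. Closest to the threshold was SLC30A9, a zinc transporter of mitochondria, with RMA values of 10.70 and 10.48 on the PC3 miR-410 and PC3 miR-CON arrays and 9.99 and 10.06 on the C42B miR-410 and C42B miR-CON arrays. Its log2 difference was 0.56 ± 0.17 (adjusted p = 0.0665). SLC30A3, known from zinc-filled synaptic vesicles, had a log2 difference of 0.50 ± 0.19 (adjusted p = 0.125). SLC30A5 and SLC30A6, which form a pair that supplies zinc to enzymes of the early secretory pathway, and SLC30A7, which serves the Golgi, had log2 differences of 0.12, 0.17 and 0.24. SLC30A2, a vesicular transporter of the mammary gland, SLC30A8, the transporter of insulin granules, and SLC30A10, chiefly a manganese exporter, were at RMA values below the median of all values on each of the 4 arrays, and their log2 differences were -0.01, 0.02 and -0.15.

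Among the importers, SLC39A8 differed most. It carries zinc, manganese, iron and cadmium into cells. RMA values were 10.02 and 10.68 on the PC3 miR-410 and PC3 miR-CON arrays, and 7.10 and 7.04 on the C42B miR-410 and C42B miR-CON arrays. Both arrays titled PC3 were thus well above both titled C42B, with a log2 difference of 3.28 ± 0.25 (SE), or 9.71-fold (adjusted p = 0.000815).

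SLC39A6 and SLC39A10 are close relatives whose proteins are known to form a complex at the plasma membrane, and they differed in opposite directions. SLC39A6, known as the oestrogen-regulated gene LIV-1, had RMA values of 11.04 and 10.97 on the PC3 miR-410 and PC3 miR-CON arrays, against 9.48 and 9.36 on the C42B miR-410 and C42B miR-CON arrays. Its log2 difference was 1.59 ± 0.16, or 3.01-fold higher on the arrays titled PC3 (adjusted p = 0.0022). For SLC39A10 the RMA values were 9.67 and 9.08 on the PC3 miR-410 and PC3 miR-CON arrays and 10.40 and 10.34 on the C42B miR-410 and C42B miR-CON arrays. The log2 difference was -0.99 ± 0.24, or 1.99-fold lower on the arrays titled PC3 (adjusted p = 0.0325). The call of SLC39A10 was lost without the array titled PC3 miR-CON (adjusted p = 0.164), without that titled C42B miR-410 (0.0728) and without that titled C42B miR-CON (0.0691).

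SLC39A3, an importer of the plasma membrane, had RMA values of 8.61 and 8.52 on the PC3 miR-410 and PC3 miR-CON arrays, against 7.77 and 7.92 on the C42B miR-410 and C42B miR-CON arrays. The log2 difference was 0.72 ± 0.17, or 1.64-fold (adjusted p = 0.0300). This call was lost with the construct by title in the model (adjusted p = 0.0507) and without the array titled PC3 miR-410 (0.192), PC3 miR-CON (0.138) or C42B miR-410 (0.0584).

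SLC39A1, described as the main route of zinc uptake in prostate cells, did not pass the test. Its RMA values were 7.26 and 7.32 on the PC3 miR-410 and PC3 miR-CON arrays, and 7.20 and 6.81 on the C42B miR-410 and C42B miR-CON arrays, with a log2 difference of 0.28 (adjusted p = 0.37). SLC39A9, an importer of the secretory pathway, had RMA values of 9.78 and 9.86 on the PC3 miR-410 and PC3 miR-CON arrays and of 10.66 and 10.32 on the C42B miR-410 and C42B miR-CON arrays. Its log2 difference was -0.67 ± 0.19 (adjusted p = 0.0542).

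The other 8 importers did not pass either, with log2 differences from -0.47 to 0.42. SLC39A4, whose loss causes the zinc deficiency acrodermatitis enteropathica, was at -0.44, and SLC39A13, an importer of secretory vesicles needed in connective tissue, was at -0.47. SLC39A7, which releases zinc from the endoplasmic reticulum, SLC39A11, a Golgi importer, and SLC39A14, a carrier of zinc, iron and manganese, were at 0.23, 0.16 and 0.10. SLC39A5, an importer of the basolateral membrane of epithelial cells, was at -0.18. SLC39A2 and SLC39A12, an importer of the brain, had RMA values below the median of all values on each array, with log2 differences of 0.42 and -0.18. An adjusted p above 0.05 in a comparison of 2 arrays with 2 does not show that these genes were alike in both lines.

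**Figure D3:**
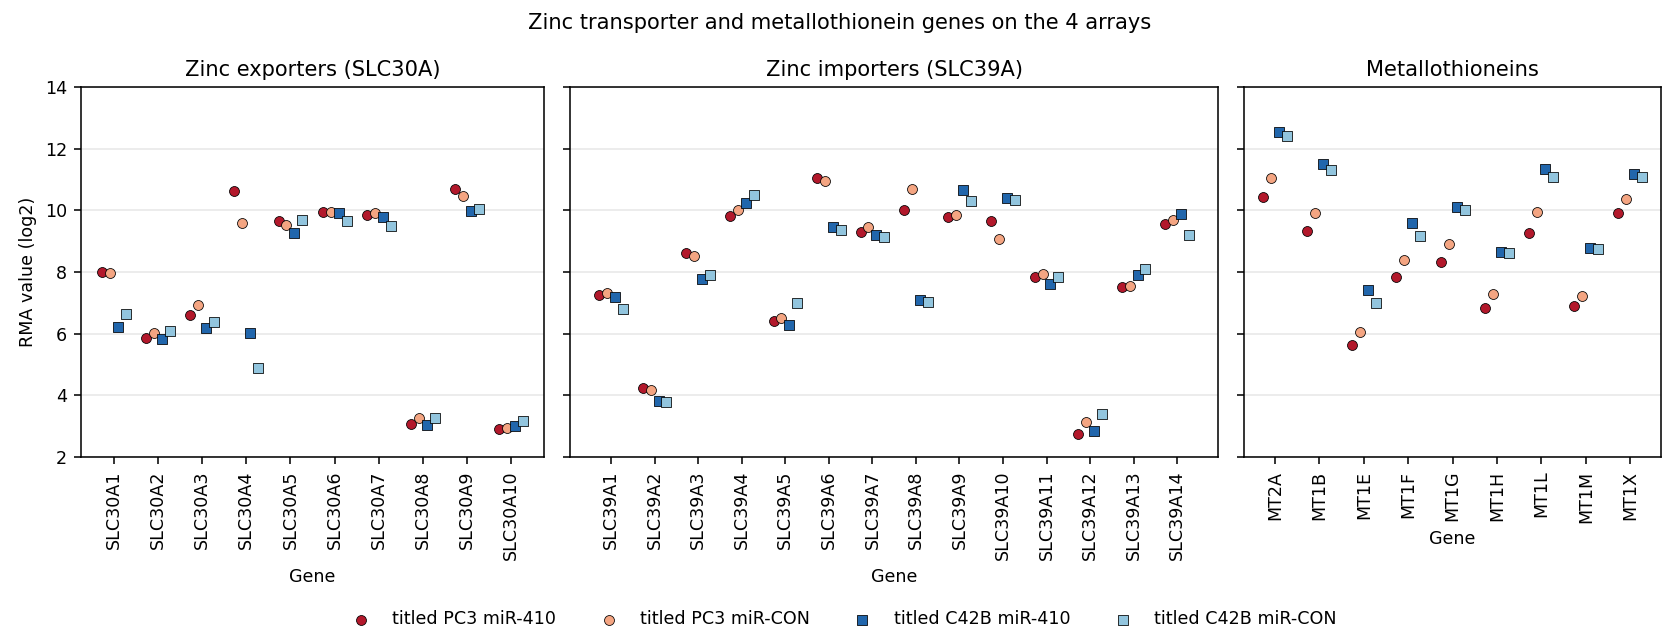
RMA value (log2, y axis) of each of the 33 genes on the 4 arrays, with exporters, importers and metallothioneins in separate panels and 1 point per array. All 9 metallothioneins show the same order of the arrays, lowest on that titled PC3 miR-410 and highest on that titled C42B miR-410, an order in which the array titled C42B miR-410 exceeds that titled C42B miR-CON for 6 of 9 once a loess trend is subtracted.

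All 9 metallothionein probe sets were called lower on the arrays titled PC3. MT2A encodes the most widely expressed form. Its RMA values were 10.42 and 11.04 on the PC3 miR-410 and PC3 miR-CON arrays, against 12.54 and 12.42 on the C42B miR-410 and C42B miR-CON arrays. The 2 arrays titled C42B were close to each other and above both titled PC3. The log2 difference was -1.75 ± 0.24 (SE), that is 3.36-fold lower on the arrays titled PC3 (adjusted p = 0.00603).

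The MT1 genes, which lie beside MT2A and encode proteins much like it, differed by similar amounts. MT1B had RMA values of 9.34 and 9.91 on the PC3 miR-410 and PC3 miR-CON arrays, and 11.50 and 11.33 on the C42B miR-410 and C42B miR-CON arrays (log2 difference -1.79 ± 0.24, adjusted p = 0.00511). It had the widest difference of the 9. MT1M had RMA values of 6.91 and 7.24 on the PC3 miR-410 and PC3 miR-CON arrays, and 8.79 and 8.74 on the C42B miR-410 and C42B miR-CON arrays (-1.69 ± 0.19, adjusted p = 0.00279). MT1L, a transcribed pseudogene of the family, had RMA values of 9.29 and 9.95 on the PC3 miR-410 and PC3 miR-CON arrays, and 11.34 and 11.10 on the C42B miR-410 and C42B miR-CON arrays (-1.60 ± 0.26, adjusted p = 0.0100). The probe set of the pseudogene thus ran with those of the coding members, with which it may share signal.

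MT1H had RMA values of 6.84 and 7.28 on the PC3 miR-410 and PC3 miR-CON arrays, and 8.67 and 8.63 on the C42B miR-410 and C42B miR-CON arrays. Its log2 difference was -1.58 ± 0.21 (adjusted p = 0.00469). MT1G, with RMA values of 8.32 and 8.91 on the PC3 miR-410 and PC3 miR-CON arrays and 10.10 and 10.01 on the C42B miR-410 and C42B miR-CON arrays, differed by -1.44 ± 0.24 (adjusted p = 0.0102). As with MT2A, the arrays titled C42B lay within 0.12 of each other while the arrays titled PC3 were farther apart.

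MT1E, MT1F and MT1X had the smallest differences of the family. MT1E had RMA values of 5.63 and 6.04 on the PC3 miR-410 and PC3 miR-CON arrays, and 7.41 and 6.99 on the C42B miR-410 and C42B miR-CON arrays (log2 difference -1.37 ± 0.23, adjusted p = 0.0116). Values for MT1F were 7.84 and 8.39 on the PC3 miR-410 and PC3 miR-CON arrays, and 9.58 and 9.18 on the C42B miR-410 and C42B miR-CON arrays (-1.26 ± 0.26, adjusted p = 0.0198). For MT1X they were 9.92 and 10.38 on the PC3 miR-410 and PC3 miR-CON arrays, and 11.1992 and 11.0825 on the C42B miR-410 and C42B miR-CON arrays (-0.99 ± 0.21, adjusted p = 0.0233). The calls of all 3 were lost without the array titled PC3 miR-410 (adjusted p = 0.0621, 0.0960 and 0.142), and those of MT1F and MT1X also without that titled C42B miR-410 (0.0513 and 0.0552). The other 6 metallothioneins kept their calls under every alternative run.

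Within the pairs, the comparison set miR-410 against miR-CON by title (difference: miR-410 minus miR-CON). With 1 stable transfectant a side, it cannot tell the construct apart from other differences between the cultures or arrays. Differences here are of 1 array against 1 and carry no error and no test. The direction taken from the titles is opposite to that of the fold changes printed by the study, which also stand under the other line's name, so every sign below turns if the study's direction is right. In the pair titled PC3 the genotype field likewise turns the sign.

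SLC30A4 was the only member to differ by 2-fold or more, and it did so in both pairs. Its RMA values were 10.63 against 9.58 in the pair titled PC3, a 2.07-fold difference, and 6.02 against 4.87 in the pair titled C42B, a 2.22-fold difference, each time higher on the array titled miR-410. Over the whole table, 0.466% of probe sets were at least 2-fold higher in the pair titled PC3, 1.38% in the pair titled C42B, and 0.0373% (8 probe sets) in both. By the genotype field the 2 pairs would run in opposite directions for this gene. Both of its values in the pair titled C42B were below the median of all values, and signal over background could not be read from RMA values.

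At 1.5-fold, 6 members differed in the pair titled PC3. SLC30A4 and SLC39A10 were higher on the array titled miR-410, where 3.11% of all probe sets were, and SLC39A8, MT2A, MT1G and MT1L were lower, where 3.65% of all were. The values of SLC39A10 were 9.67 against 9.08 (1.51-fold), and those of SLC39A8 were 10.02 against 10.68 (1.58-fold lower). For both genes the pair titled C42B showed log2 differences of only 0.05 and 0.06.

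The pair titled C42B had 3 members that differed by 1.5-fold or more. SLC30A4 and SLC39A14 were higher on the array titled miR-410, where 6.94% of all probe sets were, and SLC39A5 was lower, where 7.08% of all were. SLC39A14 had RMA values of 9.88 against 9.20 (1.60-fold higher) in that pair, and 9.57 against 9.70 in the pair titled PC3. SLC39A5 had values of 6.30 against 6.99 (1.62-fold lower) in the pair titled C42B, and 6.41 against 6.51 in the pair titled PC3. SLC39A12, at 2.83 against 3.41, came close to this fold at values that are among the dim ones of the table. The number of members past 1.5-fold in this pair was no greater than the share of all probe sets would give.

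The 9 metallothioneins shared a direction within each pair as deposited. In the pair titled PC3 all 9 were lower on the array titled miR-410, with log2 differences from -0.67 for MT1L to -0.33 for MT1M and a median of -0.55, against a median of -0.01 over all probe sets. In the pair titled C42B all 9 were higher on the array titled miR-410, from 0.04 for MT1H to 0.41 for MT1E with a median of 0.12, but with a loess trend on mean level subtracted only 6 were higher and 3 were lower. Over all probe sets the median in that pair was 0.00 and the median absolute difference was 0.244, so the metallothionein median there was smaller than that of a typical probe set. In the pair titled PC3 the median absolute difference over all probe sets was 0.165, below the smallest metallothionein difference.

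Lower in the pair titled PC3 and higher in the pair titled C42B was a direction shared by 24.3% of all probe sets and by the 9 metallothioneins. By level, the arrays ran C42B miR-410, C42B miR-CON, PC3 miR-CON, PC3 miR-410 from the highest for 10 members, these 9 and SLC39A9, and for 8.01% of all probe sets. With a loess trend subtracted, the place of the first 2 arrays changed for 3 of the 9. Shared signal among near-identical transcripts was not tested.

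**Figure D4:**
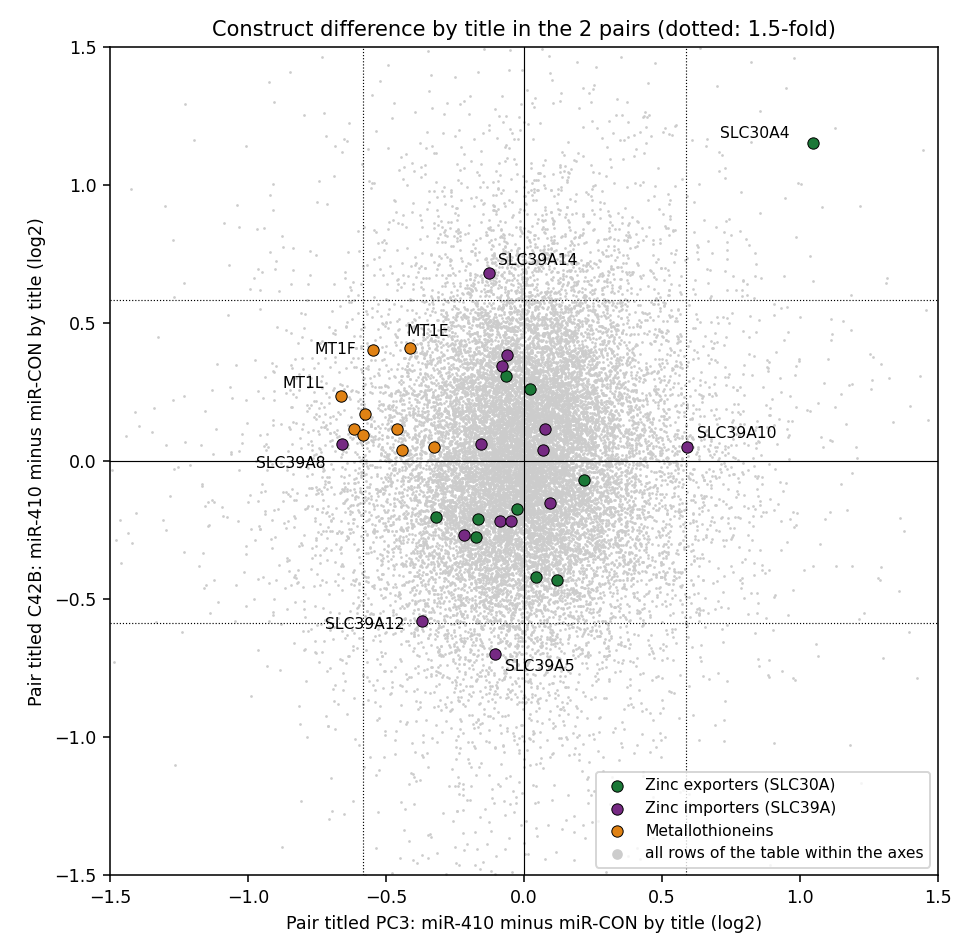
Log2 difference, array titled miR-410 minus array titled miR-CON, in the pair titled PC3 (x axis) and in the pair titled C42B (y axis), 1 array a side, for the 33 genes (coloured by family) and for all probe sets within the axes (grey), with dotted lines at 1.5-fold. SLC30A4 lies past 2-fold in both pairs, and the metallothioneins lie left of zero by 0.33 to 0.67 and above zero by 0.04 to 0.41, where 3 of 9 fall below zero with a loess trend subtracted.

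Other genes of zinc biology were read from a list of 16, of which 15 were measured. Between the lines 3 were called higher and 1 lower on the arrays titled PC3, against 13.5% and 10.8% of all probe sets. The one lower was GPR39, a zinc-sensing receptor of the cell surface, with RMA values of 3.67 and 4.32 on the PC3 miR-410 and PC3 miR-CON arrays, against 8.62 and 7.46 on the C42B miR-410 and C42B miR-CON arrays (log2 difference -4.04 ± 0.43, adjusted p = 0.00241). Within the pair titled C42B, GPR39 was higher on the array titled miR-410 by 1.17 on the log2 scale. TRPM7, a channel that passes zinc and magnesium, was higher by 1.05 in the same pair (7.77 against 6.72) and did not pass the test between the lines (adjusted p = 0.0909).

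MTF1, the gene of the zinc-responsive factor itself, was named after its values were seen. It had RMA values of 8.99 and 9.15 on the PC3 miR-410 and PC3 miR-CON arrays, against 8.31 and 7.99 on the C42B miR-410 and C42B miR-CON arrays. The log2 difference was 0.92 ± 0.19 (limma adjusted p = 0.0210), and the metallothionein transcripts were lower on the same arrays. Neither zinc nor the activity of the factor was measured, and its part in the metallothionein values was not tested.

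Glucocorticoids are also known inducers of metallothionein genes, MT2A above all. Of 10 genes of the glucocorticoid response, 8 were measured, 2 were called higher and 3 lower on the arrays titled PC3. The shares over all probe sets were 13.5% higher and 10.8% lower. NR3C1, the glucocorticoid receptor, had RMA values of 3.67 and 3.84 on the PC3 miR-410 and PC3 miR-CON arrays, against 7.99 and 7.78 on the C42B miR-410 and C42B miR-CON arrays (log2 difference -4.13 ± 0.18, adjusted p = 0.000132). Like those of GPR39, its values on the arrays titled PC3 were far below the median of all values, at a level that may be background, so the size of the difference is uncertain. Its targets ZBTB16 and KLF9 were higher on the arrays titled PC3, with log2 differences of 2.96 and 1.94 (limma adjusted p = 0.000698 and 0.00167). ERRFI1 and SGK1, also known targets and named after their values were seen, were lower on the arrays titled PC3, with log2 differences of -1.93 and -1.91 (adjusted p = 0.00241 and 0.0160). The targets called ran in both directions. TSC22D3, DUSP1 and TAT, the rest of the list measured, were not called. Their log2 differences were 0.46, -0.19 and -0.18 (limma adjusted p = 0.111, 0.693 and 0.625). The part of NR3C1 in the metallothionein values was not tested.

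Of 15 genes of the metal and oxidative stress response, which share inducers with metallothioneins, 13 were measured. On the arrays titled PC3, 2 were called higher and 2 lower, against 13.5% and 10.8% of all probe sets. GSR, glutathione reductase, was higher by 1.94 on the log2 scale (adjusted p = 0.00175). GCLM, a subunit of the enzyme that begins glutathione synthesis, was not called between the lines (adjusted p = 0.216) but was higher by 1.33 on the array titled miR-410 of the pair titled C42B (7.86 against 6.53). No gene of the list differed by 2-fold in the pair titled PC3.

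Zinc is known to inhibit mitochondrial aconitase in the prostate, which spares citrate for secretion. Of 15 genes of citrate metabolism, 14 were measured, and 5 were called higher and 1 lower on the arrays titled PC3. Over all probe sets 13.5% were called higher and 10.8% lower. IDH1, the cytosolic isocitrate dehydrogenase, was higher by 1.52 on the log2 scale (adjusted p = 0.00640). ANKH, a membrane protein through which citrate and ATP leave the cell, was higher by 1.42 (adjusted p = 0.00358). ACLY, which splits citrate for lipid synthesis, was higher by 1.31 (adjusted p = 0.00483). Within the pairs, 0 genes of this list differed by 2-fold.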

How the data were processed

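RNA of 4 stable transfectants was isolated with the miRNeasy kit, labelled with the GeneChip WT Plus kit and hybridized to Clariom S arrays. The authors normalized the scanner files by RMA in Partek, as the submitters' processing notes also state, and deposited the results as log2 values for every probe set. Precision is limited by the number of arrays, and genome build and array batches are not given in the sources used here. Groups were taken from array titles. Of 21448 probe sets, 17709 had 1 gene symbol in the platform's annotation, 0 had several and 3739 were unnamed. The lines were compared with limma 3.58.1 in R 4.3.3 (lmFit, eBayes, line as the only term, 2 residual degrees of freedom) on all probe sets with Benjamini-Hochberg adjustment at 0.05, after a test on simulated data. Within pairs, genes were counted at 2-fold, with 1.5-fold and 3-fold as alternatives. The methods name an ANOVA without stating its terms, and with 1 array a group it was not run within pairs.

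For the direction, printed folds of 18 genes with a named probe set were set against the deposited values. All 18 matched within 0.1% only as the array titled miR-CON over that titled miR-410, in the pair titled with the other line.

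Alternatives were the construct as a term (by title or by genotype field), bright probe sets only (highest value at or above 6.359, the median of all values, which 28 of 33 members passed), averaged probe sets, an intensity trend in the prior variance, subtracted array medians or loess trends (span 0.4), and each array left out. The members and gene lists were chosen with earlier results of these data known. Every member is named, with values on each array for those called, those 1.5-fold apart in a pair and the highest of each family. Of the other lists, genes called and 2-fold apart, or 2-fold apart in a pair, are named, at most 3 a list. Outside this rule, MT3, MT4, MTF1, ERRFI1, SGK1, TSC22D3, DUSP1 and TAT were named after their values were seen. KLK3 and ANXA1 are shown as examples of the marker lists, and KLK3 was not the largest difference of its list. Figures and sequence searches used Python 3.11.15, NumPy 2.4.6, pandas 2.3.3, statsmodels 0.14.6 and Matplotlib 3.10.9.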

Additional observations from a re-analysis of the deposited data

Results flagged for a closer look

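The metallothioneins ran in opposite directions in the pairs by title. Their median log2 difference, array titled miR-410 minus array titled miR-CON, was -0.55 in the pair titled PC3 and 0.12 in the pair titled C42B, where 3 of 9 turned lower with a loess trend subtracted. MT1E (-0.41 in the pair titled PC3, 0.41 in the pair titled C42B) and MT1F (-0.55 and 0.40) were the 2 members whose differences were opposite and larger than the median absolute difference of all probe sets in both pairs. The same held for 11.8% of all probe sets (2537). With 1 array a side the difference between the pairs was not tested, and by the genotype field of the pair titled PC3 both pairs would run the same way.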

How the results depend on the processing

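Of the 15 members called between the lines, 14 were called with the construct in the model by title or by genotype field (SLC39A3 lost), and 15 with probe sets of a gene averaged or array medians subtracted. With bright probe sets only, or with an intensity trend in the prior variance, 17 were called, with SLC30A9 (adjusted p = 0.0453 and 0.0190) and SLC39A9 (0.0384 and 0.0187) added. Leaving out 1 array in turn gave 11 to 15 calls, and the line is then 1 array on one side, assumed to vary like the other. Over all probe sets, 5225 were called, against 2581 without the array titled PC3 miR-410 and 2763 without that titled PC3 miR-CON. The line differences of the 15 members called kept their sign under these alternatives. Within the pair titled PC3, 1 member passed 2-fold, 6 passed 1.5-fold and 0 passed 3-fold, and by the genotype field that 1 member, SLC30A4, was lower instead of higher. Within the pair titled C42B, 1 passed 2-fold, 3 passed 1.5-fold and 0 passed 3-fold. The fits with the construct as a term are the only pairings of arrays across the lines that the labels allow. Title and genotype field give opposite pairings, and the labels give no replicate numbers.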

Other observations

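Copper is bound by metallothioneins as zinc is, and iron shares carriers with zinc. Of 15 genes of copper handling, 14 were measured, and 1 was called higher and 0 lower on the arrays titled PC3, where 13.5% of all probe sets were called higher and 10.8% lower. The gene called was STEAP2, a metalloreductase that was also on the LNCaP marker list, with RMA values of 12.12 and 11.77 on the PC3 miR-410 and PC3 miR-CON arrays, against 9.74 and 9.72 on the C42B miR-410 and C42B miR-CON arrays (log2 difference 2.21 ± 0.19, limma adjusted p = 0.00118). In the pair titled C42B, the reductase STEAP4 (4.06 against 5.65) and the copper oxidase CP (2.59 against 4.02) were lower on the array titled miR-410 by 1.59 and 1.44 on the log2 scale, all at values below the median of the table.

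Of 14 genes of iron handling, 12 were measured, with 2 called higher and 2 lower on the arrays titled PC3. With so few genes, both counts are near what those shares of all probe sets would give. LCN2, a siderophore-binding protein that was also on the PC3 marker list, had RMA values of 5.77 and 6.03 on the PC3 miR-410 and PC3 miR-CON arrays, against 8.01 and 11.16 on the C42B miR-410 and C42B miR-CON arrays (log2 difference -3.68 ± 0.95, adjusted p = 0.0415). The arrays titled C42B differed by -3.15 for this gene. FTL, the ferritin light chain, was at 9.08 and 9.10 on the PC3 miR-410 and PC3 miR-CON arrays and at 10.07 and 10.11 on the C42B miR-410 and C42B miR-CON arrays (-1.001 ± 0.159, adjusted p = 0.00896).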
